A study of Mus musculus with 68 samples.

Results

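P2ry12, Tmem119, Trem2, Tyrobp, C1qa, C1qb, C1qc, Cx3cr1 and Csf1r, 9 genes that mark microglia, the resident macrophages of the brain, were followed through 68 prefrontal cortex libraries. They were chosen by symbol, and all 9 were found among the 18088 genes of the only table used here. The mice were C57BL/6J, of both sexes, and were studied at postnatal day 25. Those labelled HT are heterozygous for Adnp, a gene for a nuclear protein that joins chromatin-remodelling complexes. The pups received fluoxetine, lithium or vehicle through the dam's milk for 3 weeks, between days 3 and 24. HT mice given fluoxetine numbered 5 females and 5 males, and WT mice given fluoxetine also 5 and 5. HT mice given lithium numbered 4 females and 5 males, against 5 females and 3 males in WT. HT mice given vehicle numbered 8 females and 8 males, against 8 females and 7 males in WT. The labels give neither the nature of the Adnp allele nor the dose that reached a pup, and do not say which mice were littermates. The animals are told apart by number only, so p-values measure the spread between these samples. Adnp, the targeted gene, was not reduced under the HT label: over the 3 arms it was 1.23-fold higher there (log2 difference 0.30, SE 0.05, adjusted p = 1.7e-05), so HT below means the libraries that carry that label.

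Microglia enter the brain early in development and live there through the ligands of Csf1r, a receptor tyrosine kinase. They sense their surroundings through P2ry12, a receptor for ADP, through Cx3cr1, the receptor for the neuronal ligand fractalkine, and through Trem2, a lipid receptor that signals by way of the adaptor Tyrobp. They are also the main source of C1q, the protein that opens the classical complement cascade and tags synapses during postnatal pruning. C1q is built of the A, B and C chains made by C1qa, C1qb and C1qc. Tmem119 is a membrane protein used to tell microglia from other macrophages, and its function is less well known.

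Values are normalised read counts, that is reads divided by 1 size factor per library, and they set levels of the same gene side by side. A difference is on the scale of log2(value + 1), with a limma adjusted p taken over 17922 genes and a threshold of 0.05, unless another tool is named. Libraries held 22356015 to 37534435 reads, with a median of 30743592. On the levels of 361 pseudogenes they fall into 3 sets that no label names, and these sets are tied to the treatments. The 28 libraries of set 1 are the fluoxetine ones of both genotypes together with 8 from HT vehicle mice. The 28 of set 2 are the lithium ones together with 6 from HT and 5 from WT vehicle mice. Set 3 is made of 2 libraries from HT and 10 from WT vehicle mice. The genotype comparisons under either drug therefore lie within 1 set, whereas a pooled drug comparison also compares sets. Pooled values are therefore followed by values within a set where 1 set holds both sides.

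All 9 genes were well above the limit of detection in each of the 68 libraries: the fewest reads were the 166 of Trem2 in 1 library. In bulk tissue fewer microglia and less RNA per microglia cannot be told apart. Per kilobase of exon, C1qb was the most abundant, with a median of 908 normalised counts per kilobase (lowest 767, highest 1119). C1qa followed at 849 and C1qc at 554, then Csf1r at 508, P2ry12 at 476 and Tyrobp at 441. Cx3cr1 stood at 344, Tmem119 at 271 and Trem2, the receptor subunit, at 63.7 per kilobase. Exon length here counts every annotated exon base of a gene, 4946 for Trem2 and 667 for Tyrobp, and the order depends on it. Without that division Trem2 and Tyrobp averaged 316 and 292 normalised counts. Some neighbours in this order exchanged places between libraries. C1qb was above C1qa in 49 of 68 libraries, C1qc above Csf1r in 59, Csf1r above P2ry12 in 44 and P2ry12 above Tyrobp in 47. C1qa was above C1qc, and Tmem119 above Trem2, in all 68. The coefficient of variation over the 68 libraries was lowest for C1qb (8.97%) and highest for Tmem119 (15.9%). For scale, the neuronal gene Camk2a averaged 12950 per kilobase.

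The 3 complement chains lie side by side on the minus strand of chromosome 4 (GRCm38): C1qb at 136880129 to 136886187, C1qc at 136889804 to 136893065 and C1qa at 136895917 to 136898803. P2ry12 lies on chromosome 3 (59216272 to 59262871, minus strand) inside Med12l, a gene of the opposite strand with which it shares 9 exonic bases. Tmem119 is on chromosome 5 (113793729 to 113800516, minus strand), Tyrobp on chromosome 7 (30413760 to 30417585, plus strand) and Trem2 on chromosome 17 (48346401 to 48354147, plus strand). Cx3cr1 is on chromosome 9 (119901616 to 120069879, minus strand), where its annotated exons share 78 bases with the antisense gene Gm33858. Whether counting used the strand is not given in the sources used here, so reads in these shared stretches cannot be assigned with certainty.

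Windows of 250 bases before the RefSeq start site were available for 5 of the 9 genes (RefSeq, GRCm38.p6): P2ry12, Trem2, C1qb, C1qc and Cx3cr1. Myeloid genes are classically driven by the ETS factor PU.1, so both strands were searched for GAGGAA, the core known as the PU box, for the longer match AGGAAGT, and for a composite of ETS and interferon regulatory factor sites (GGAA, any 2 bases, GAAA). The windows of C1qb and Trem2 are printed because they hold a PU box and overlap no annotated exon. They stand for a complement chain and for a receptor. Capitals mark the matches, and both windows run 5′ to 3′ along the gene.
C1qb (chr4:136886201-136886450, minus strand): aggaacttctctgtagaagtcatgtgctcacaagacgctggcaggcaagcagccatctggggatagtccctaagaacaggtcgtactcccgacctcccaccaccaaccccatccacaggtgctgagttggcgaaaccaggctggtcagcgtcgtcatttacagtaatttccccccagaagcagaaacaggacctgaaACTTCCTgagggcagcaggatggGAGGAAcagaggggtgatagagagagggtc
Trem2 (chr17:48346151-48346400, plus strand): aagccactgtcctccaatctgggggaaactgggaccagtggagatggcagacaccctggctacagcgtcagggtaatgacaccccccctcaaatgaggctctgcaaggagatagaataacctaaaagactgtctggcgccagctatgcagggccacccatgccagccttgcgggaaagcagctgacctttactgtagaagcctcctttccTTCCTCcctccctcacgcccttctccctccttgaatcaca
In C1qb the PU box starts at -30 and a reverse AGGAAGT match at -53, where -1 is the last base before the start site and a position is the motif's most upstream base. In Trem2 the PU box lies on the other strand at -40. C1qc holds both motifs overlapping each other near -195 on the other strand, P2ry12 holds AGGAAGT at -52, and Cx3cr1 holds none of the 3. GAGGAA is common, found in 23.3% of 32817 promoter windows of this length and in 3 of the 5 here. AGGAAGT was in 7.69% of windows and in 3 of the 5, and the composite in 2.30% of windows and in 0 of the 5. These matches are letters in a window and say nothing of binding.

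**Figure D1:**
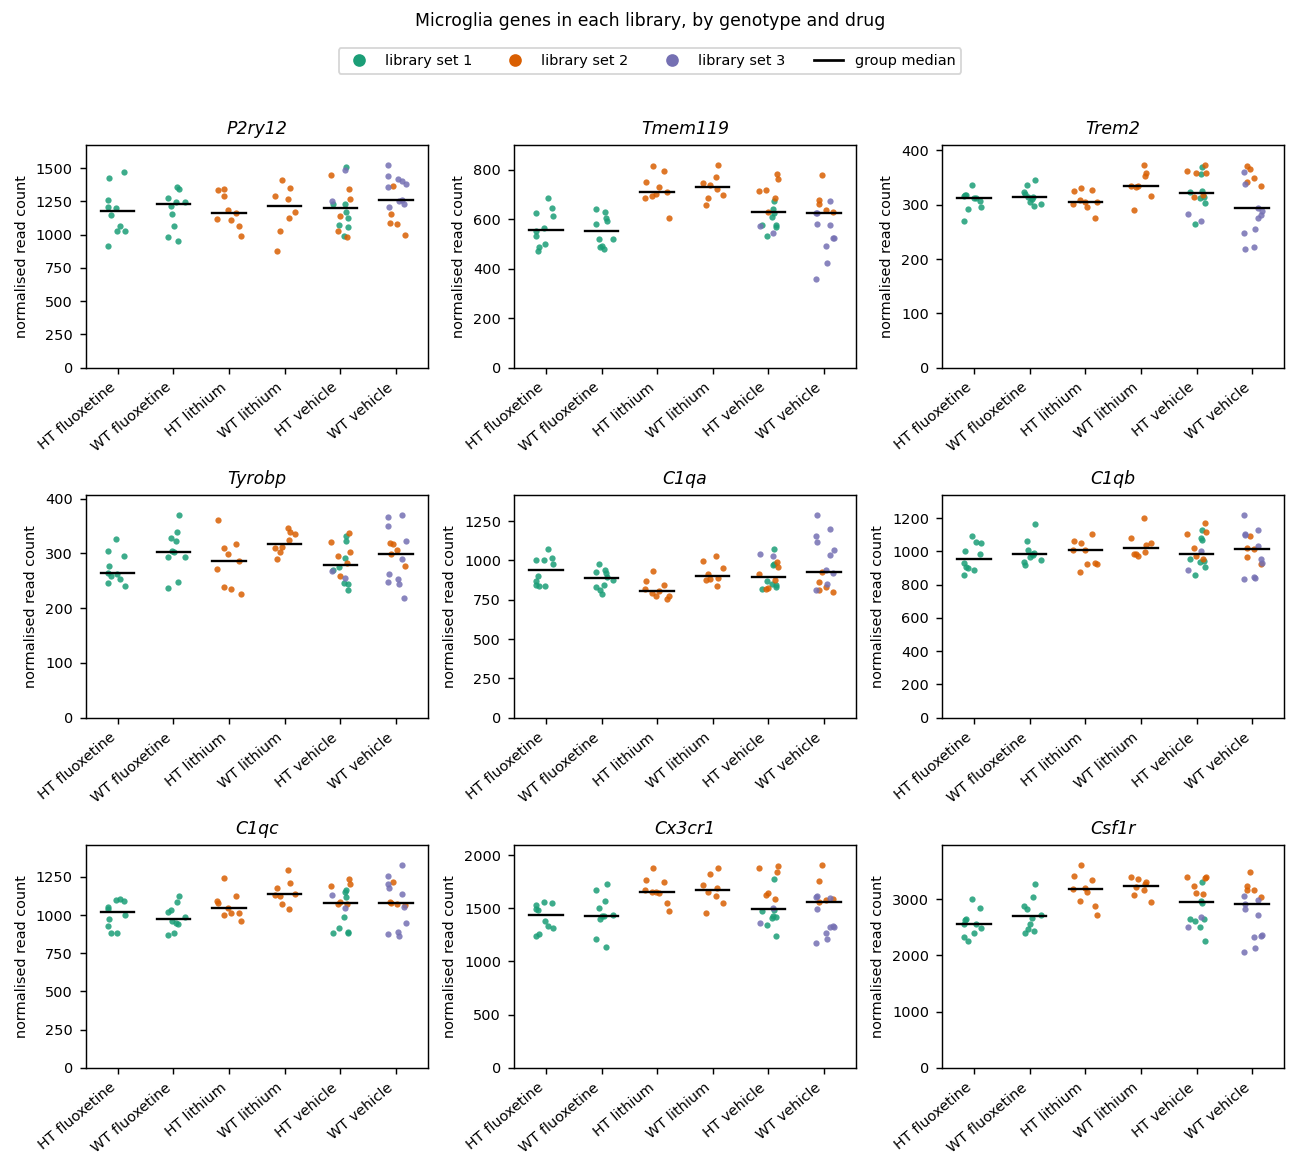
Normalised read counts (vertical axes, starting at 0) of the 9 microglia genes in each of 68 libraries, by genotype and drug. Each point is a library, coloured by library set, and black bars are group medians; Csf1r and Tmem119 run higher in the set 2 libraries, whether the mice had lithium or vehicle.

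The first question was whether the Adnp genotype moved the microglia genes. Under vehicle 0 of 9 passed, against 15.0% of all genes tested, with 2 of 9 at an unadjusted p under 0.05 (Tmem119 and Trem2) and 0 passing with edgeR or DESeq2. Their differences ran between -0.08 for P2ry12 and 0.15 for Tmem119, with a median of 0.01 against -0.01 over all genes. The 95% intervals of the 9 reached from -0.22 to 0.28 on the log2 scale. Within set 2, which holds 6 HT and 5 WT vehicle libraries, 0 of 9 passed (0.536% of all genes) and 0 had an unadjusted p under 0.05. Under fluoxetine 0 of 9 passed (1.98% of all genes), with 0 at an unadjusted p under 0.05 in limma and 1 in each of edgeR and DESeq2, which also passed 0. Under lithium 0 of 9 passed (2.51% of all genes), with 2 at an unadjusted p under 0.05 and 0 passing by limma, edgeR and DESeq2 alike. Another limma fit gave each group a mean per library set and shared the spread over all 68 libraries. The fluoxetine and lithium genotype differences are the same in it, and only the estimated spread changes. There 0 of 9 passed under fluoxetine (2.85% of all genes, 1 at an unadjusted p under 0.05) or lithium (4.49%, 2 at an unadjusted p under 0.05).

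Among the C1q chains the genotypes overlapped in each arm. C1qa had 839 to 1075 normalised counts in HT fluoxetine libraries (median 939), against 788 to 979 in WT fluoxetine libraries (median 886). Under lithium it had 757 to 935 in HT (median 803), against 838 to 1025 in WT (median 902). Under vehicle it had 815 to 1074 in HT (median 893), against 797 to 1287 in WT (median 927). The lithium difference of C1qa (-0.17, SE 0.08, adjusted p = 0.25) did not pass. C1qb, the steadiest of the 9, had medians of 956, 1009 and 986 in HT fluoxetine, lithium and vehicle libraries, against 981, 1019 and 1016 in WT. C1qc had medians of 1018, 1047 and 1081 in the same HT arms, against 974, 1137 and 1075 in WT. Within any arm C1qb stayed between 834 and 1218 and C1qc between 862 and 1326. C1qb differed by 0.01 under vehicle, -0.04 under fluoxetine and -0.08 under lithium, and C1qc by -0.02, 0.03 and -0.12. Neither chain passed in any arm.

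Trem2, the receptor, had 270.3 to 336 normalised counts in HT fluoxetine libraries (median 312), against 298 to 346 in WT (median 314). It had 276 to 330.0 in HT lithium libraries (median 306), against 290.1 to 372 in WT (median 335). Under vehicle it had 264 to 373 in HT (median 321), against 218 to 371 in WT (median 295). The vehicle difference of 0.13 (SE 0.06, adjusted p = 0.11) did not pass. Within set 2 it was -0.02, and the lower WT values came from set 3, where Trem2 had a median of 278 in 10 WT vehicle libraries. Leaving out WT vehicle male 6 or male 7 let Trem2 pass (adjusted p = 0.033 and 0.027), and leaving out male 7 let Tmem119 pass (adjusted p = 0.027).

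Tyrobp, the adaptor through which Trem2 signals, was the 1 microglia gene called by genotype, and only when the 3 arms were averaged. It had 241 to 326 normalised counts in HT fluoxetine libraries (median 264), against 238 to 370.0 in WT (median 304). It had 227 to 360.5 in HT lithium libraries (median 287), against 290.1 to 346 in WT (median 318). Under vehicle it had 233 to 337 in HT (median 279.6), against 218 to 369.7 in WT (median 299). The HT median was the lower one in each arm, and the groups overlapped in each. Averaged over the arms Tyrobp was 0.913-fold its WT level (log2 difference -0.13, SE 0.04, adjusted p = 0.046), which is 1 of 9 genes against 7.43% of all genes, or 3.12% counted as lower. By arm the difference was -0.15 under fluoxetine, -0.19 under lithium and -0.05 under vehicle.

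That call sat at the threshold. In all libraries edgeR (adjusted p = 0.045) and DESeq2 (adjusted p = 0.034) also made it. Within library sets the Tyrobp difference was of like size (-0.12, SE 0.05) but did not pass (adjusted p = 0.18), with 0 of 9 called against 4.65% of all genes and 1 of 9 at an unadjusted p under 0.05. Of the 68 fits that each left out 1 library, 32 kept the call and 36 lost it, with adjusted p between 0.023 and 0.11. The 36 libraries were spread over all 12 groups, 2 to 4 in each. Border-associated macrophages, the myeloid cells of the meninges and vessel walls, also express Tyrobp. Of their 10 markers 1, Cd209f, a lectin gene, was lower in HT over the arms (log2 difference -0.89, SE 0.17, adjusted p = 1e-04, and -0.89 within sets, adjusted p = 0.0025), and none was higher. Cd209f had medians of 8.65, 4.27 and 6.43 in HT fluoxetine, lithium and vehicle libraries, against 15.3, 11.3 and 11.4 in WT. The summed level of the 10 was 1204 to 1954 in HT fluoxetine libraries, against 1505 to 2000.2 in WT, 1408 to 1967 in HT lithium libraries, against 1467 to 1954 in WT, and 1378 to 1955 in HT vehicle libraries, against 1552 to 2174 in WT. Over the arms 3 of 10 astrocyte markers and 4 of 7 mural cell markers were lower in HT as well, and none was higher. Within sets 4 and 1 were lower. For these lists and the border-associated macrophage list, the share of all genes called as lower over the arms was 3.12%. Within sets 298 of 17922 genes were called as lower, and 4.65% of all genes in either direction. The part of these cells in the Tyrobp result was not tested. Of 10 monocyte and neutrophil markers only Ccr2, a chemokine receptor, and Ly6c2 are in the table, with Ccr2 at 7.31 to 44.1 normalised counts. Ccr2 was higher in HT over the arms (log2 difference 0.39, SE 0.12, adjusted p = 0.039, and 0.62 within sets), in a comparison that called 7.43% of all genes. The difference of Ly6c2 is not given here.

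Csf1r, the receptor on which microglial survival depends, lies on chromosome 18 (61100598 to 61132149, plus strand) and shares 873 exonic bases with Hmgxb3 on the other strand. It had 2263 to 2997 normalised counts in HT fluoxetine libraries (median 2557), against 2404 to 3269 in WT (median 2700.0). Csf1r had 2714 to 3605 in HT lithium libraries (median 3174), against 2955 to 3392 in WT (median 3245). Under vehicle it had 2249 to 3399 in HT (median 2958), against 2064 to 3487 in WT (median 2922). The genotypes overlapped in each arm, with differences of -0.08, -0.03 and 0.08. Cx3cr1, the fractalkine receptor, had 1240.4 to 1555 in HT fluoxetine libraries (median 1433), against 1135 to 1725 in WT (median 1431), 1479 to 1881 in HT lithium libraries (median 1654), against 1458 to 1876 in WT (median 1671), and 1236 to 1894 in HT vehicle libraries (median 1494), against 1176 to 1904 in WT (median 1562). Csf1r and Cx3cr1 both had their highest median under lithium and their lowest under fluoxetine in each genotype, and the vehicle libraries spanned both. Its genotype differences were -0.03, 0.02 and 0.07 in the same order of arms.

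P2ry12, the ADP receptor of resting microglia, had 917 to 1471 in HT fluoxetine libraries (median 1176), against 954 to 1356 in WT (median 1229), and 991 to 1346 in HT lithium libraries (median 1163), against 877 to 1413 in WT (median 1217). Under vehicle it had 986 to 1512 in HT (median 1197), against 999 to 1523 in WT (median 1257). Unlike Csf1r and Cx3cr1 it had its lowest HT median under lithium. Tmem119 had 473 to 686 in HT fluoxetine libraries (median 557), against 478 to 642 in WT (median 551), and 605 to 816 in HT lithium libraries (median 710.1), against 658 to 819 in WT (median 731). Under vehicle it had 531 to 784 in HT (median 627), against 357 to 777 in WT (median 626). The lowest Tmem119 library of all 68 was thus a WT vehicle one, and the genotypes overlapped in each arm. The genotype differences were -0.02, 0.03 and -0.08 for P2ry12 and 0.03, -0.02 and 0.15 for Tmem119, and with those of Csf1r and Cx3cr1 none of these 12 values passed.

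**Figure D2:**
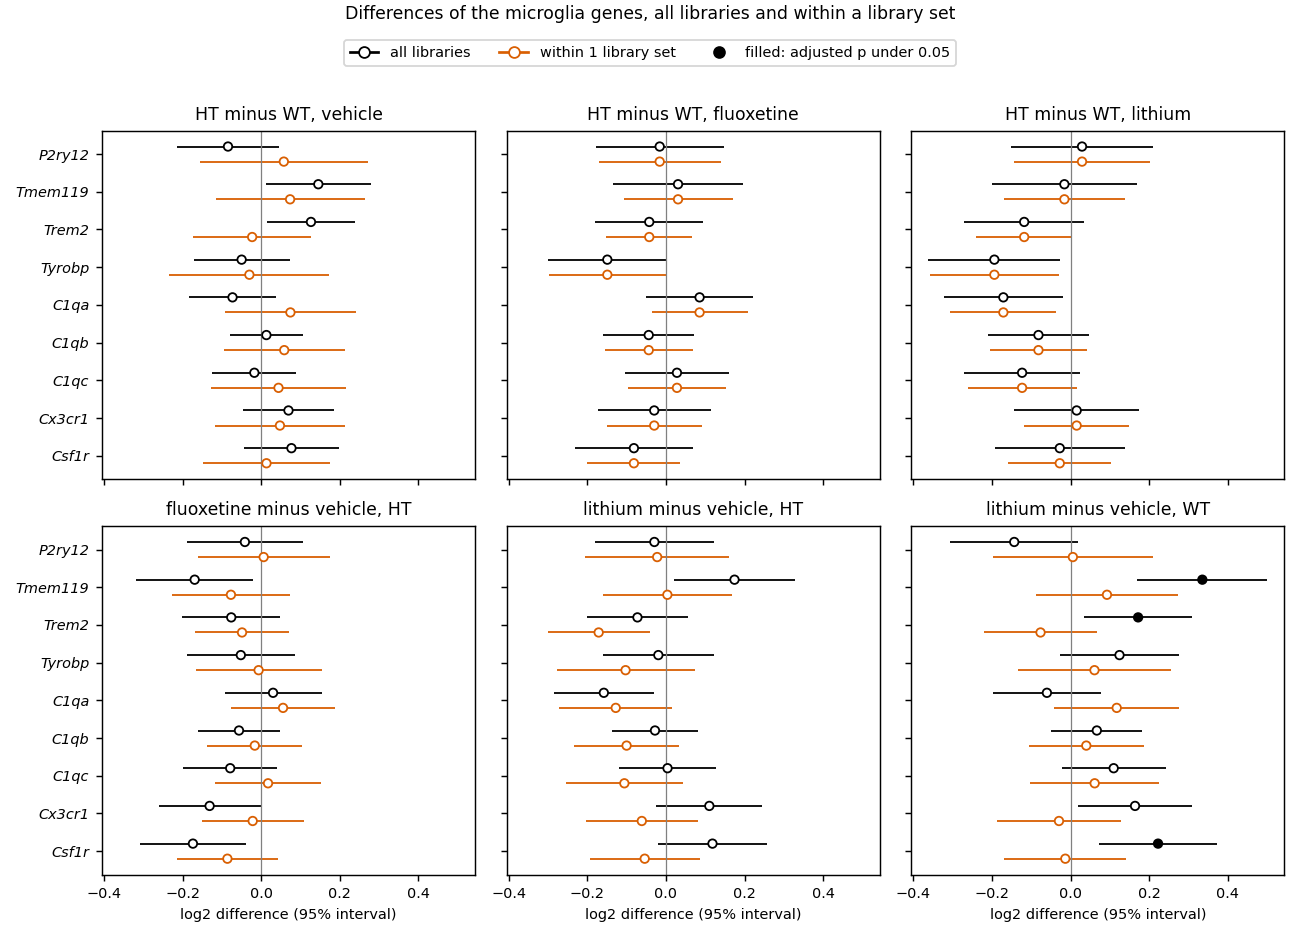
Log2 differences of the 9 genes with 95% intervals, HT minus WT in each arm (top) and fluoxetine minus vehicle in HT, lithium minus vehicle in HT and lithium minus vehicle in WT (bottom), in all libraries (black) and within 1 library set (orange). Filled symbols mark an adjusted p under 0.05, reached by Tmem119, Csf1r and Trem2 for lithium in WT when libraries were pooled and by none within a set.

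The next question was what each drug changed. Pooled over sets, lithium in WT was the 1 drug comparison that called microglia genes. Tmem119 had 658 to 819 normalised counts in WT lithium libraries (median 731), against 357 to 777 in WT vehicle libraries (median 626). Csf1r had 2955 to 3392 in WT lithium libraries (median 3245), against 2064 to 3487 in WT vehicle libraries (median 2922). Trem2 had 290.1 to 372 in WT lithium libraries (median 335), against 218 to 371 in WT vehicle libraries (median 295). The lithium libraries sat in the upper part of each vehicle range and the groups overlapped. Tmem119 rose by 0.34 (SE 0.08, adjusted p = 0.0014), Csf1r by 0.22 (SE 0.07, adjusted p = 0.016) and Trem2 by 0.17 (SE 0.07, adjusted p = 0.044). This is 3 of 9 higher and 0 lower, in a comparison that called 36.1% of all genes, and 18.6% of all genes as higher. edgeR and DESeq2 each called 2 of the 9, Tmem119 and Csf1r.

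All WT lithium libraries are in set 2, while 10 of the 15 WT vehicle libraries are in set 3. Within set 2, Tmem119 had 660.4, 628, 677, 637 and 777 in the 5 WT vehicle libraries, a range that lies inside that of WT lithium except for its lowest 2 values. Csf1r had 3158, 3043, 3237, 3169 and 3487 there, and Trem2 had 371, 334, 341, 349.6 and 365. The 2 groups overlapped for each gene. The differences within set 2 were 0.09 for Tmem119 (SE 0.09, adjusted p = 0.76), -0.01 for Csf1r (SE 0.08, adjusted p = 0.98) and -0.08 for Trem2 (SE 0.07, adjusted p = 0.74). Within the set 0 of 9 passed, against 0.664% of all genes, and 0 of 9 had an unadjusted p under 0.05. The Trem2 call was also lost in edgeR (adjusted p = 0.058) and DESeq2 (adjusted p = 0.055), and in 12 of the 68 fits that left out 1 library, with adjusted p between 0.051 and 0.20. Those 12 were WT lithium females 1 to 4 and males 2 and 3, and WT vehicle females 1, 4 and 5 and males 1, 3 and 5.

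Cx3cr1 missed the threshold in the pooled comparison (log2 difference 0.16, SE 0.07, adjusted p = 0.067) and passed when WT lithium female 5, WT vehicle female 6 or WT vehicle male 6 or 7 was left out (adjusted p = 0.050, 0.044, 0.046 and 0.017). Within set 2 its difference was -0.03. P2ry12, the ADP receptor, had a negative difference when pooled (-0.14, SE 0.08, adjusted p = 0.16) and stood at 0.01 within set 2.

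Markers of other cells were read in the same pooled comparison. It called 36.1% of all genes, 18.6% as higher, and 3138 of 17922 as lower. Of 8 oligodendrocyte markers 3 were higher under lithium in WT (Mog, Cldn11 and Mag) and 0 lower, with a summed level of 109151 to 213282 in WT lithium libraries, against 87344 to 235918 in WT vehicle libraries. Of 5 red blood cell markers 3 were higher (Hba-a1, Hba-a2 and Alas2), with sums of 11514 to 24537 in WT lithium libraries, against 5738 to 21414 in WT vehicle libraries. Of 8 choroid plexus and meningeal markers 4 were lower, with sums of 3949 to 9681 under lithium, against 4259 to 6593 under vehicle. Of 10 border-associated macrophage markers 1, the endocytic adaptor Dab2, was lower (-0.57, SE 0.11, adjusted p = 8.6e-05), and their sums were 1467 to 1954 under lithium, against 1552 to 2174 under vehicle. Within set 2 none of these lists had a marker that passed, against 0.664% of all genes. Their part in the pooled result was not tested.

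Lithium in HT called 0 of 9, against 1.52% of all genes, with 2 of 9 at an unadjusted p under 0.05 and 0 passing in edgeR or DESeq2. Tmem119 had 605 to 816 in HT lithium libraries (median 710.1), against 531 to 784 in HT vehicle libraries (median 627), a difference of 0.17 (SE 0.08, adjusted p = 0.23) that was 0.00 within set 2. C1qa had 757 to 935 in HT lithium libraries (median 803), against 815 to 1074 in HT vehicle libraries (median 893). Its difference was -0.16 (SE 0.06, adjusted p = 0.19) pooled and -0.13 within set 2, neither of which passed. Trem2 was at -0.07 pooled and -0.17 within the set (adjusted p = 0.27), where 0 of 9 passed against 0.162% of all genes and 1 of 9 had an unadjusted p under 0.05.

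Fluoxetine in HT called 0 of 9, against 1.22% of all genes, with 3 of 9 at an unadjusted p under 0.05 and 0 passing in edgeR or DESeq2. Those 3 had negative differences: Csf1r at 2263 to 2997 in HT fluoxetine libraries (median 2557), against 2249 to 3399 in HT vehicle libraries (median 2958), Tmem119 and Cx3cr1. Their pooled differences were -0.17, -0.17 and -0.13, and within set 1, which holds 8 of the 16 HT vehicle libraries, they were -0.09, -0.08 and -0.02. Within that set 0 of 9 passed, against 0.167% of all genes, and 0 had an unadjusted p under 0.05.

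Fluoxetine in WT called 0 of 9, against 5.43% of all genes, with 2 of 9 at an unadjusted p under 0.05 and 0 passing in edgeR or DESeq2. C1qa (-0.13, SE 0.06, adjusted p = 0.21) and C1qc (-0.12, SE 0.06, adjusted p = 0.21) were those 2. No set holds both sides, so drug and library set cannot be told apart there.

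Whether a drug acted differently in the genotypes was tested directly, as the HT effect minus the WT effect. For lithium 0 of 9 passed, against 2.8% of all genes, and 1 of 9 had an unadjusted p under 0.05: Trem2, at -0.24 (SE 0.09, adjusted p = 0.12) pooled and -0.09 within set 2. Within that set 0 of 9 passed (0.0% of all genes), and the 1 gene with an unadjusted p under 0.05 was C1qa (-0.25, adjusted p = 0.47). For fluoxetine 0 of 9 passed, against 0.0% of all genes, and 0 had an unadjusted p under 0.05. With edgeR and DESeq2 0 of 9 passed in both. The comparisons of a drug with vehicle share their vehicle libraries within each genotype.

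Females and males overlapped for each of the 9 genes. Trem2, with the largest difference, had 255 to 371 normalised counts in 35 female libraries (median 319), against 218 to 373 in 33 male libraries (median 314). Over all groups 0 of 9 passed, against 0.1% of all genes, and 0 had an unadjusted p under 0.05, with female minus male differences between -0.02 for C1qa and 0.05 for Trem2 and 95% intervals reaching from -0.10 to 0.13. The genotype difference under vehicle did not pass as a difference between females and males either (0 of 9, against 0.0% of all genes, 0 at an unadjusted p under 0.05). edgeR and DESeq2 also called 0 of 9 in both.

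Levels of the microglia genes also differed between the library sets, which is given here as a description, with no test. Csf1r ran at 2249 to 3300.2 in set 1 (median 2647), 2714 to 3605 in set 2 (median 3207) and 2064 to 3062 in set 3 (median 2597). Vehicle libraries alone showed the same order. In HT vehicle libraries Csf1r was 2249 to 3300.2 in set 1 and 3086 to 3399 in set 2, and in WT vehicle libraries it was 3043 to 3487 in set 2 and 2064 to 3062 in set 3. In HT 3 of the 6 set 2 libraries lay within the range of set 1, and in WT the ranges of sets 2 and 3 overlapped between 3043 and 3062. Cx3cr1 had medians of 1431, 1654 and 1345 in sets 1 to 3, Tmem119 of 578, 712 and 558, and Trem2 of 314, 334 and 278.

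P2ry12, C1qa and C1qc did not follow. P2ry12 had medians of 1184, 1160.0 and 1370.4, and C1qa of 886, 864 and 1037, so that both were highest in set 3, where Csf1r was low. C1qc had medians of 987, 1087 and 1091, about level in sets 2 and 3. C1qb (971, 1013 and 977) and Tyrobp (284, 305 and 265) had their highest median in set 2, as Csf1r did. Of 7 ratios between microglia genes, 3 did not overlap between sets 2 and 3, and set 1 overlapped set 2 in each. The 7 are a choice among the possible pairs. How often ratios of other genes part between these sets was not examined, so the count is not a trait of microglia genes. Csf1r over P2ry12 was 1.86 to 2.55 in set 1, 2.30 to 3.50 in set 2 and 1.52 to 2.34 in set 3, so the ranges of sets 2 and 3 barely met. Tmem119 over P2ry12 was 0.332 to 0.644, 0.493 to 0.751 and 0.262 to 0.482, with no overlap between sets 2 and 3. Cx3cr1 over P2ry12 was 1.04 to 1.43, 1.28 to 1.66 and 0.865 to 1.23, likewise without overlap between sets 2 and 3. Chains of the same protein differed too: C1qa over C1qb was 0.769 to 1.03 in set 1, 0.766 to 0.929 in set 2 and 0.948 to 1.17 in set 3, again with no overlap between sets 2 and 3. C1qa over C1qc was 0.795 to 0.981, 0.734 to 0.879 and 0.870 to 1.12. C1qc over C1qb overlapped in all 3 sets, with medians of 1.02, 1.08 and 1.06, and so did Trem2 over Tyrobp, at 0.928 to 1.35, 0.902 to 1.39 and 0.744 to 1.29.

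**Figure D3:**
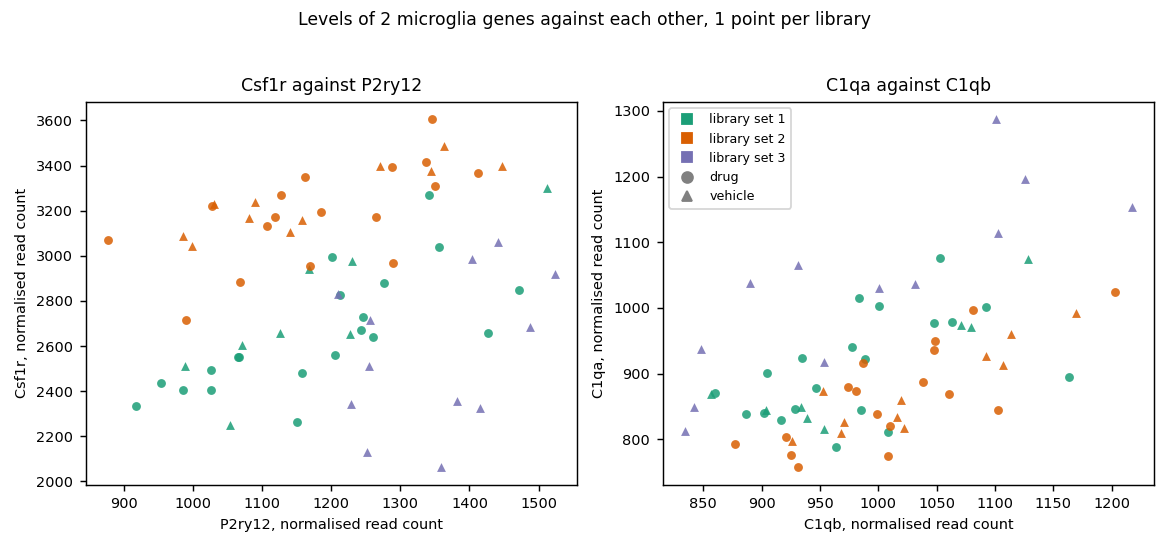
Csf1r against P2ry12 (left) and C1qa against C1qb (right), both as normalised read counts, with 1 point per library coloured by library set and shaped by drug or vehicle. Set 2 libraries (orange) mostly lie above set 3 libraries (purple) on the left at a given P2ry12 level and below them on the right at a given C1qb level.

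Once group means had been removed, the 9 genes varied together from library to library within sets 1 and 2, and only some of them did in set 3. Pearson's r over the 36 pairs lay between 0.33 and 0.87 in set 1, 0.52 and 0.84 in set 2 and 0.00 and 0.96 in set 3, with medians of 0.67, 0.67 and 0.62 in sets 1 to 3. By a permutation test with 100000 resamples and adjustment over 108 relations, 34 pairs passed in set 1, 36 in set 2 and 15 in set 3, which holds 12 libraries. The 15 pairs of set 3 were all among Tmem119, C1qa, C1qb, C1qc, Cx3cr1 and Csf1r. No pair with P2ry12, Trem2 or Tyrobp passed there, and r of such pairs ran from 0.00 (P2ry12 with C1qc) to 0.68 (Tyrobp with C1qa). The points of a pair share the library and its size factor. The pair of survival and fractalkine receptors, Csf1r and Cx3cr1, was among the closest in each set, with r of 0.87, 0.84 and 0.93 (Spearman's rho 0.91, 0.81 and 0.92; permutation adjusted p = 0.00022, 0.00022 and 0.0020). Without the 2 libraries farthest from the median of Cx3cr1, r was 0.86, 0.79 and 0.86.

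The 3 C1q chains were close to each other in all 3 sets. C1qa with C1qb had r of 0.82, 0.83 and 0.87, C1qa with C1qc 0.83, 0.82 and 0.85, and C1qb with C1qc 0.82, 0.83 and 0.90. Each of these 9 values passed (permutation adjusted p between 0.00022 and 0.0076), and each kept an r of at least 0.69 without the 2 farthest libraries. They were also close to Csf1r, at r of 0.71, 0.64 and 0.93 for C1qa, 0.76, 0.62 and 0.96 for C1qb and 0.87, 0.70 and 0.91 for C1qc (permutation adjusted p between 0.00022 and 0.0054), so that in set 3 each chain was closer to Csf1r than to the other chains. Trem2 and Tyrobp, which act as 1 receptor complex, were less close: r was 0.42, 0.52 and 0.47, with permutation adjusted p of 0.070, 0.025 and 0.23. P2ry12 went with Csf1r in sets 1 and 2 (r = 0.74 and 0.67, permutation adjusted p = 0.00083 and 0.0013). In set 3 their r was 0.24 (permutation adjusted p = 0.53), and the difference between sets was not tested.

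**Figure D4:**
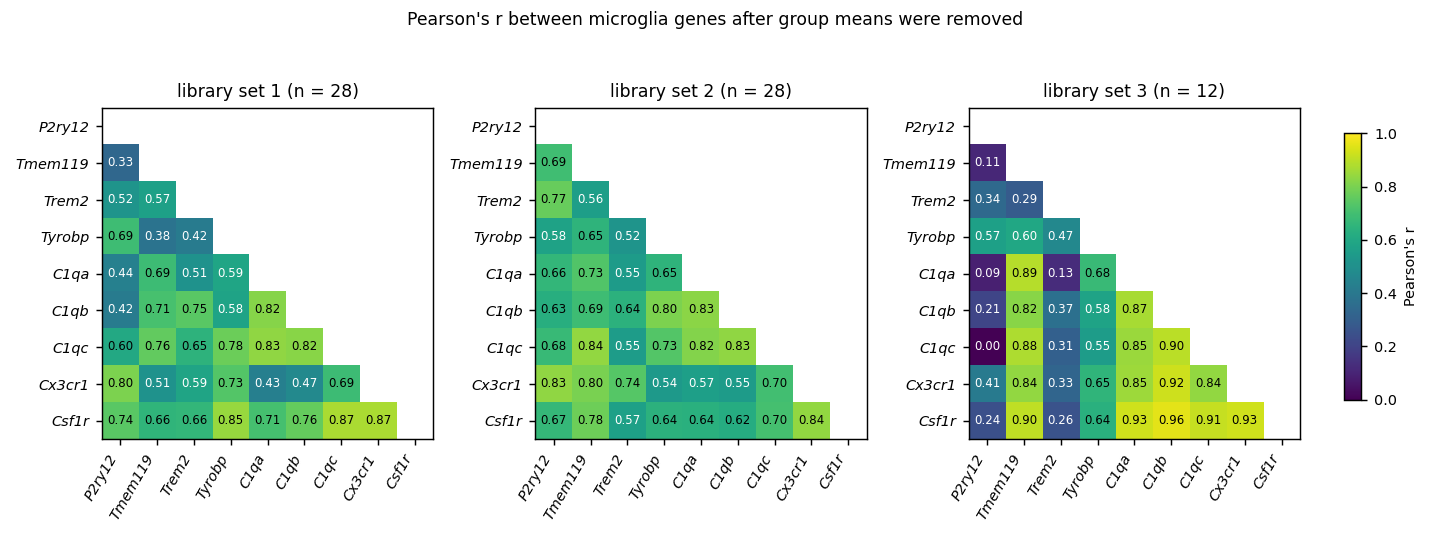
Pearson's r between each pair of microglia genes within each library set after group means were removed, on a colour scale with limits of 0 and 1. The C1q chains hold values between 0.82 and 0.90 in all 3 sets, and the lowest value of all, 0.00, is that of P2ry12 with C1qc in set 3.

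The same deviations were compared with those of 13739 genes with a mean value of at least 50, over 68 libraries with the means of group and set removed. The median gene had a mean r of -0.01 to the 9. Csf1r and C1qc had mean r of 0.73 and 0.71 to the other 8, and no gene outside the list reached either value. P2ry12 (0.52) and Trem2 (0.48) were matched by 2.18% and 3.52% of other genes. Among other microglia genes Fcrls, an Fc receptor-like scavenger gene, had 0.70 and Selplg, the gene of the P-selectin ligand, 0.69. Genes not listed for microglia came as close. The 6 highest outside all lists were Pltp (0.70), a phospholipid transfer protein gene, Selenow (0.68), Chst2 (0.68), Cenpb (0.67), Aldoc (0.67), an aldolase gene of astrocytes, and Psd (0.66). The points share their libraries, and with them the size factor, the tissue composition and the RNA quality.

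Other genes of the same pathways were read against the 7.43% of all genes called by genotype over the arms. Below Trem2 and Tyrobp stand the kinase Syk and the phospholipase Plcg2. Of 10 such genes tested, 2 were higher in HT over the 3 arms and 0 lower, against 7.43% of all genes in either direction, and their median difference was 0.01 against 0.00 over all genes. Plcg2 had 149 to 183 normalised counts in HT fluoxetine libraries, against 114 to 149 in WT. It had 169.9 to 249.9 in HT lithium libraries, against 131 to 159 in WT, and 159 to 256 in HT vehicle libraries, against 109 to 144 in WT. Under lithium and vehicle the genotypes did not overlap, and under fluoxetine their ranges met at 149. Plcg2 was 1.39-fold higher over the arms (log2 difference 0.48, SE 0.04, adjusted p = 1.4e-16), and 0.46 within sets. Syk was higher by 0.22 (SE 0.04, adjusted p = 7.5e-05), and by 0.27 within sets.

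Both MHC class II genes that were examined were higher in HT as well. Of 19 genes tested from a list for activated or disease-associated microglia, 2 were higher in HT over the arms and 1 lower, against 7.43% of all genes. Cd74, the invariant chain of MHC class II, had medians of 193, 204 and 194 in HT fluoxetine, lithium and vehicle libraries, against 132, 169 and 135 in WT. It was higher by 0.43 over the arms (SE 0.05, adjusted p = 2e-10) and by 0.45 within sets. H2-Aa, an MHC class II chain, had medians of 72.9, 72.4 and 72.6 in the HT arms, against 49.8, 56.8 and 50.1 in WT (log2 difference 0.51, SE 0.06, adjusted p = 3.9e-09, and 0.55 within sets). Lpl, the lipoprotein lipase gene, was lower (log2 difference -0.19, SE 0.05, adjusted p = 0.0048, and -0.18 within sets). Both MHC class II genes are also expressed by border-associated macrophages, whose marker sums are given above, and by B cells. The monocyte gene Ccr2 was higher in HT in the same comparison, as given above, and the part of these cells was not tested. Of 10 lymphocyte markers 3 are in the table and none passed. The median difference of the activated list was -0.01.

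In complement, 3 of 16 other genes were higher in HT over the arms and 1 lower, against 7.43% of all genes. C1ra, which encodes the protease C1r that C1q activates, had medians of 60.1, 73.3 and 54.5 in HT fluoxetine, lithium and vehicle libraries, against 25.8, 47.5 and 34.1 in WT. Its difference was 0.73 (SE 0.10, adjusted p = 1e-07) and 0.62 within sets. C1s1, for the partner protease C1s, was higher by 0.30 (SE 0.08, adjusted p = 0.0070, and 0.32 within sets), and C3ar1, the receptor for C3a, was lower (log2 difference -0.25, SE 0.06, adjusted p = 0.0071), which was -0.24 within sets and did not pass there (adjusted p = 0.074). The C1q chains themselves stood at -0.05, -0.04 and -0.04 over the arms.

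Of 25 other homeostatic microglia genes, 1 was higher in HT over the arms and 3 lower, against 7.43% of all genes and 3.12% as lower, with a median difference of -0.05. Slc2a5, the fructose transporter gene used as a microglia marker, was higher (0.30, SE 0.05, adjusted p = 4.1e-05, and 0.28 within sets). Ctss, the lysosomal protease cathepsin S, was lower (-0.15, SE 0.04, adjusted p = 0.0027, and -0.15 within sets). Rgs10, a regulator of G protein signalling, was lower when pooled (log2 difference -0.14, SE 0.04, adjusted p = 0.029) and did not pass within sets (-0.06, adjusted p = 0.38). Among 8 myeloid transcription factors, 0 passed over the arms and 2 were lower under vehicle (Mef2c and Maf), against 15.0% of all genes. Within set 2 Mef2c was at -0.12 and Maf at -0.05, and neither passed. Mef2c is also a neuronal gene, with a mean of 1325 normalised counts per kilobase.

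**Figure D5:**
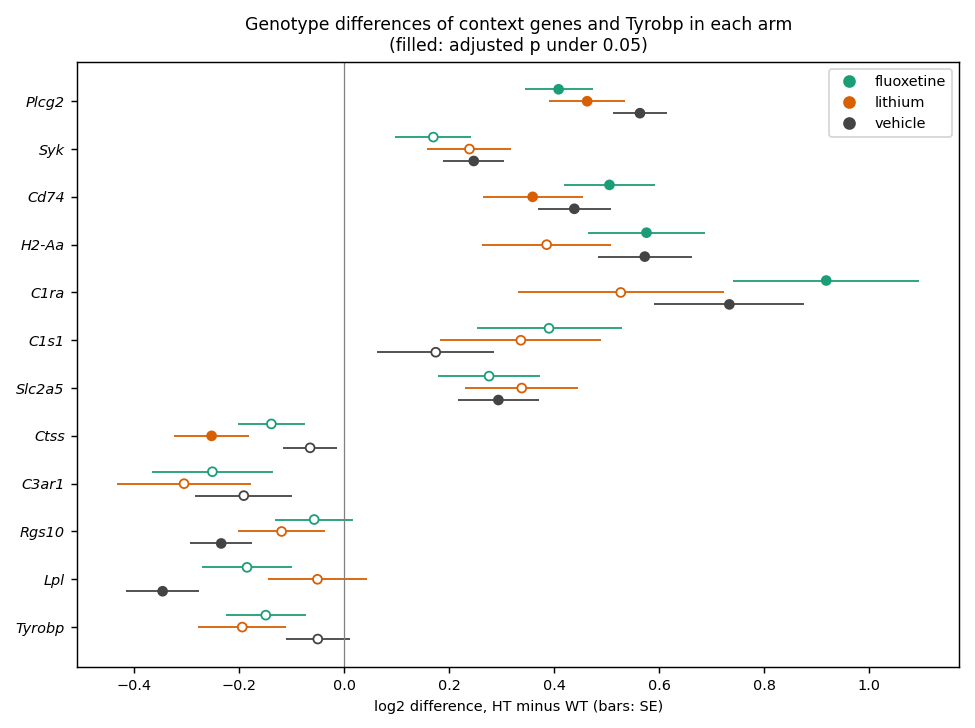
Log2 difference, HT minus WT, of 11 genes from the pathways around the 9 microglia genes and of Tyrobp, in the fluoxetine, lithium and vehicle arms (bars are SE, filled symbols mark an adjusted p under 0.05). Plcg2 lies between 0.41 and 0.56 in all 3 arms, whereas Tyrobp lies between -0.19 and -0.05.

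Ligands of the receptors gave few calls by genotype. Of 8 genes for Csf1r and Cx3cr1 ligands and Tgfb signalling, 0 passed by genotype over the arms, and 1 passed under vehicle, against 15.0% of all genes. That gene was Il34, the neuronal ligand of Csf1r (0.17, SE 0.06, adjusted p = 0.036), which was -0.04 within set 2. For lithium in WT 3 were higher and 1 lower when pooled, in a comparison that called 18.6% of all genes as higher and 3138 of 17922 as lower. Nrros, a microglial partner of latent Tgfb1 (0.53), Smad3 (0.42) and Il34 (0.31) were the 3 with the smallest p. Within set 2 these differences were 0.25, 0.12 and 0.02, and none passed. In the same comparison 5 of 25 homeostatic genes were higher and 4 lower when pooled, against 36.1% of all genes, among them the Fc receptor gene Fcgr3 (0.34, and 0.26 within set 2, adjusted p = 0.087), and 0 passed within the set.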

How the data were processed

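Prefrontal cortex mRNA was sequenced from stranded libraries, per the labels' protocols. Salmon 0.11.2, R 3.6.0 and DESeq2 1.19.11 with build GRCm38 are named in the submitters' processing notes. The deposited values are a signal per gene that the authors made by dividing read counts by 1 size factor per library, as the values themselves show: 100.0% of them returned to whole reads within a tolerance of 0.01. Exon lengths and coordinates came from GENCODE release M21, which matched 18077 of 18088 genes.

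Values were tested as log2(value + 1) with limma 3.58.1 (trend and robust), as means of 12 groups of genotype, drug and sex over all 68 libraries, and each comparison averaged the sexes. A mean value of 5 or more was required, which kept 17922 genes and left out 166, and p-values were adjusted by Benjamini-Hochberg. Alternatives were a pseudocount of 5, no filter, TMM scaling, edgeR 4.0.16 (quasi-likelihood) and DESeq2 1.42.0 on recovered reads, fits within a library set or with the set as a term, a replicate block, and leaving out each of 68 libraries. Values within a set came from means per group and set, with the spread shared by all 68 libraries. The set as a term was chosen after seeing the data. Library sets came from average linkage on correlations over 361 pseudogenes. The main limma fit was tested on simulated counts for genotype under vehicle. That simulation held no library sets, and the alternative fits were not simulated. In 174 pairs of replicates none was a duplicate (lowest chi-square per gene 3.92).

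The 9 genes, all lists and the tests were chosen with earlier results of these data known. Named from each list were at most 3 genes with the smallest p in a comparison where any passed, and the 2 most abundant per length. The 6 genes most like the microglia genes were also named. A gene that these rules would name is not reported here.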

Additional observations from a re-analysis of the deposited data

Results flagged for a closer look

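Each gene was examined for a library far from the rest of its group, in 99 groups of a gene by genotype, drug and sex, of which chance flags about 1 in 20. There were 3 such values, and no explanation was tested. Csf1r in WT lithium female 5 stood at 2955 normalised counts, with the nearest library of its group at 3269.6, a gap of 0.72 of the group's range. In WT vehicle female 1, Tmem119 stood at 424, with the nearest library at 575 (gap of 0.597 of the range). The same library had Csf1r at 2131, with the nearest at 2716 (gap of 0.528 of the range).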

How the results depend on the processing

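A pseudocount of 5, no filter, TMM scaling, edgeR and DESeq2 kept the number of microglia genes passing within 1.5 times in all 12 comparisons, and TMM moved the scale by -0.01 to 0.01 (log2). For genotype over the 3 arms, 0 passed within library sets, with the set as a term or with a replicate block, against 1 in all libraries, and 0 to 1 when 1 library was left out. For genotype under vehicle that range was 0 to 2. For lithium in WT, 0 passed within set 2 or with the set as a term, 5 with the replicate block (which called 8849 of 17922 genes), and 2 to 4 when 1 library was left out, against 3. There Trem2 changed sign, to -0.076 within the set and -0.048 with the set as a term, and Csf1r to -0.013 within the set. The replicate block gave 2 genes for fluoxetine in WT and 4 for lithium in HT, against 0 for both, while its calls over all genes were 4003, against 974, and 3746, against 273. Replicate numbers did not pair the libraries throughout: same-numbered ones had correlations between -0.24 and 0.51, with a median of 0.01 and 19 of 69 over 0.1. For genotype under vehicle 7 of 15 were over 0.1, with a median of 0.07. Vehicle libraries numbered 6 and above are all in set 2, so number and set are tied there. The cause of these changes was not tested. Fits within a set were not run for fluoxetine in WT or its interaction, since no set holds both sides. Depth was not limiting for these genes, with at least 166 reads in each library; the number of animals and the unlabelled library sets limit what can be told apart.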

Other observations

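Beyond the pathways described, 10 interferon response genes had a median difference of 0.24 under vehicle, HT minus WT. Of these 10, 2 were higher in HT, against 1387 of 17922 genes called as higher there and 15.0% in either direction. They were Ifit3 (log2 difference 0.37, SE 0.11, limma adjusted p = 0.016) and Ifitm3 (0.22, SE 0.07, limma adjusted p = 0.020, and 0.10 within set 2). Over the 3 arms 1 was higher, Ifit3 (0.23, SE 0.08, limma adjusted p = 0.044), against 772 of 17922 genes called as higher. Within library sets 0 of 10 passed, against 4.65% of all genes, with Ifit3 at 0.27 (limma adjusted p = 0.071). Of 8 genes of purine and adenosine signalling around P2ry12, 0 passed by genotype in limma, in comparisons that called 1.98% (fluoxetine) to 15.0% (vehicle) of all genes. For lithium in WT 1 of the 8 was lower in the pooled libraries, against 3138 of 17922 genes called as lower and 36.1% in either direction. It was P2rx4, an ATP-gated channel (-0.22, SE 0.06, limma adjusted p = 0.0026), and it stood at -0.05 within set 2. Ccr2, the chemokine receptor of monocytes, had medians of 18.7, 20.9 and 21.5 normalised counts in HT fluoxetine, lithium and vehicle libraries, against 15.5, 14.4 and 18.4 in WT.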
